A study of Homo sapiens with 6 samples.

Results

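The 32 genes described here belong to the ATF4 arm of the integrated stress response and the amino acid synthesis it governs, measured as mRNA in SW620 cells. SW620 is an established human colorectal cancer line. The genes were chosen by symbol from a list of ATF4, the transcription factors that act with it, its stress targets, and enzymes of serine, proline, asparagine and one-carbon metabolism. That list was drawn up with earlier results of these data known. All 32 were found among the 19672 genes of the deposited table, and all 32 passed the filter on low counts that left 13299 genes to test.

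The study silenced DKC1, which encodes dyskerin, the pseudouridine synthase of box H/ACA particles and a part of telomerase. C3 and C6 are knockdown lines of SW620 that carry a lentiviral shRNA against DKC1 in a pLV vector, and the scramble line carries a non-targeting shRNA (shSCRM) in the same kind of vector. All 3 lines were grown in Leibovitz's L-15 medium with fetal bovine serum under 1 μg/mL puromycin, with no other treatment, and all 6 libraries share 1 batch label. The design text names a pair of shRNAs, shDKC1-2 and shDKC1-3, but which of them C3 or C6 carries, and whether a line is 1 clone or a pool, are not stated in the labels. Each group, scramble included, was 1 line, so knockdown and line cannot be told apart in the comparisons with scramble either. Each line had 2 libraries that the titles call biological replicates. Nothing says that they came from separate cultures, so the p-values measure the spread between these libraries, which may be technical.

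DKC1 itself stood at 144 and 149 CPM (counts scaled to a common library size) in C3, 70.3 and 67.1 CPM in C6, and 320 and 315 CPM in scramble libraries. Both lines were lower than scramble, by a log2 fold change of −1.11 in C3 and −2.21 in C6, and C6 was lower than C3 (log2 difference −1.10, adjusted p = 1.7e-09, quasi-likelihood test of edgeR, Benjamini-Hochberg adjusted). The genotype tag of C3 replicate 1 reads control while its title says knockdown, and its DKC1 level is that of the other C3 library. Library totals ran from 26077966 to 31021000 counts. Of 10 colorectal epithelial markers, 8 exceeded 1 CPM, with CDX1 at 0 throughout, and their summed level was 5937 to 6125 CPM in C3, 7027 to 7105 CPM in C6 and 7396 to 7936 CPM in scramble libraries. Summed fibroblast, leukocyte and endothelial markers stayed at or under 35.1 CPM in every library, with markers such as COL1A2, COL3A1, DCN, PTPRC, CD3E, MS4A1 and CDH5 at 0. The part of these marker levels in the results was not tested. In bulk RNA, fewer cells expressing a gene and less RNA per cell cannot be told apart.

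In the integrated stress response, kinases that sense amino acid shortage, unfolded protein, heme deficit or double-stranded RNA phosphorylate the initiation factor eIF2, which lowers general protein synthesis and raises translation of ATF4 through upstream open reading frames in its mRNA. ATF4 protein then pairs with C/EBP-family partners at C/EBP-ATF response elements and switches on genes for amino acid synthesis, amino acid uptake and tRNA charging. Prolonged activity also induces DDIT3 (CHOP) and feedback genes that restore translation. Much of the control of ATF4 is translational, and the data hold mRNA only: no ATF4 protein was measured.

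The promoters that carry the response element show what ATF4 is known to read, and the matches found here are printed for that reason. RefSeq windows (GRCh38.p14) from 250 bases before to 50 bases after an annotated start were at hand for 25 of the 32 genes. The core letters TGATGNAA were searched on both strands and lay in windows of 5 of these genes, against 4.46% of 27305 genes with a window. The lines below run 5′ to 3′ on the gene's strand, with the core in capitals.

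ASNS, chr7:97872458-97872487, minus strand: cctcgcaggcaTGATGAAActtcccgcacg

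CEBPG, chr19:33374060-33374089, plus strand: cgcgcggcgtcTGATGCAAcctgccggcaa

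CHAC1, chr15:40953251-40953280, plus strand: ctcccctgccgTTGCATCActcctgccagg

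JDP2, chr14:75427992-75428021, plus strand: tatatagccggggcTGATGCAAcccgtccc

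MTHFD1L, chr6:150866346-150866375, plus strand: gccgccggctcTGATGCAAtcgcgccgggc

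In CHAC1 the core lies on the other strand, so its capitals are the reverse complement. Counted from the annotated start, the core begins at base −68 in ASNS, −42 in CEBPG, −209 in CHAC1 and −16 in JDP2. In MTHFD1L the same match begins at −129 or −90, or at 24 past the start, depending on which annotated start is used. The ASNS promoter is known from earlier work to hold a nutrient-sensing element of this kind. Full cAMP response element letters, TGACGTCA, were found in the window of 1 gene, PPP1R15A, against 2.25% of all genes with a window, and they do not overlap the other core. They are capitalised in its line, which begins 11 bases before them.

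PPP1R15A, chr19:48872352-48872381, plus strand: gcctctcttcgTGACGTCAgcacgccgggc

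The ER stress element, CCAAT, 9 bases of any kind, then CCACG, was in no window of the 25 genes, against 0.0916% of all genes. These matches are letters in a window and show nothing about binding. Of the 6 genes printed, ASNS and CHAC1 were higher in C3 than in scramble, ASNS and PPP1R15A were higher in C6, JDP2 was lower in C6, and CEBPG and MTHFD1L passed the test in neither line, as the values given with each gene show.

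Against scramble, the genes called in the C3 line were all higher in it. In C3, 16 of the 32 genes were higher and 0 were lower at an adjusted p below 0.05 (quasi-likelihood test of edgeR, Benjamini-Hochberg over all 13299 genes), against 12.4% of all genes tested called higher and 11.9% called lower. Because the 32 genes were chosen with earlier results of these data known, these counts are a description and not a test of the list. The genes that rose were GDF15, CHAC1, VLDLR, CEBPB, PSAT1, GADD45A, DDIT4, NUPR1, STC2, PHGDH, PSPH, PCK2, SESN2, GPT2, PYCR1 and ASNS. The median log2 fold change of the 32 genes was 0.19, and that of all genes tested was 0.00. At an unadjusted p below 0.05, 1 gene, ATF5, was lower in C3 by edgeR and by DESeq2, and DESeq2 called 0 lower after adjustment. ATF5 became the 1 gene called lower with scaling by median of ratios, with upper-quartile scaling, with a filter of 1 CPM in 2 libraries, with only C3 and scramble in the fit, and without C6 replicate 1. Without C3 replicate 1, the library with the conflicting tag, 13 genes were called higher and 0 lower.

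The C6 line differed from scramble in both directions. In C6, 10 genes were higher, against 23.8% of all genes tested, and 10 were lower, against 22.8%, with a median log2 fold change of 0.05 over the 32 genes and −0.01 over all genes. Under upper-quartile scaling, 7 were higher and 12 lower in C6, while over all genes 2624 were higher and 3685 lower, in place of 3168 and 3037. The genes that rose were GADD45A, SESN2, PYCR1, CEBPB, ASNS, TRIB3, PPP1R15A, VLDLR, DDIT3 and PCK2. The genes that fell were NUPR1, CTH, PSAT1, ATF5, SHMT2, PSPH, GDF15, JDP2, STC2 and GPT2. The share of the 32 genes called in each direction is thus not far above the share of all genes. The C3 and C6 comparisons share the scramble libraries, so their values are set side by side here and no overlap between them is counted.

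In the direct comparison of the lines, 6 genes were higher in C6 than in C3, against 25.1% of all genes tested, and 14 were lower, against 24.1%. The median log2 difference, C6 minus C3, was −0.17 over the 32 genes and 0.00 over all genes. GADD45A, PYCR1, SESN2, PPP1R15A, TRIB3 and ASNS were the 6 higher in C6. NUPR1, GDF15, PSAT1, CTH, PSPH, STC2, SHMT2, CHAC1, JDP2, GPT2, PHGDH, DDIT4, ATF5 and ALDH18A1 were the 14 lower in C6.

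For the mean of both lines against scramble, 12 genes were higher, against 16.6% of all genes tested, and 3 (ATF5, NUPR1 and SHMT2) were lower, against 16.3%. The call of SHMT2 in that mean was lost in each of the 6 fits that left out 1 library (adjusted p from 0.073 to 0.25). With the 4 knockdown libraries taken as 1 group, so that the difference between the lines counts as spread, edgeR called 0 higher and 0 lower, and 8 were higher and 1 (ATF5) lower at an unadjusted p below 0.05.

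Most of the 32 genes were well expressed, and well-expressed genes were called higher more often than the rest. Among the 4375 genes with a mean of at least 50 CPM, a cut chosen after the data were seen, 20.3% were higher and 9.94% lower in C3, where 14 of the 26 stress genes above that level were higher and 0 lower. In C6 the shares at that level were 31.7% higher and 22.3% lower, beside 9 and 7 of the 26 genes. Counts by role below stand beside the shares of all genes tested: 12.4% higher and 11.9% lower in C3, and 23.8% and 22.8% in C6. Where libraries are said not to overlap, this is description only, since groups of 2 libraries can separate by chance. MTHFD1L, called in neither line, lay below scramble without overlap in both. The share of all genes without overlap was not counted.

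**Figure D1:**
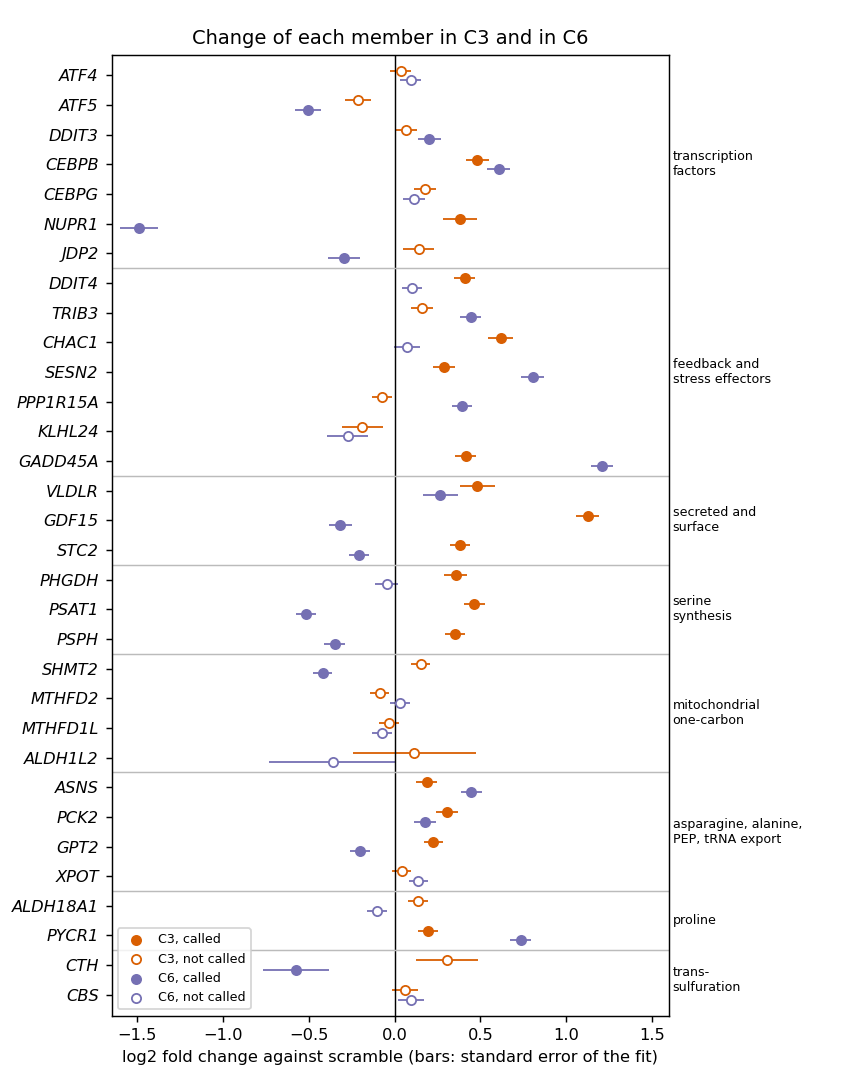
Log2 fold change of each of the 32 genes against scramble (x axis) in C3 (orange) and C6 (purple), with bars of 1 standard error of the fit and filled points where the adjusted p was below 0.05. No filled orange point lies left of 0, while filled purple points lie on both sides, from −1.49 for NUPR1 to 1.21 for GADD45A.

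Of the 7 transcription factors, CEBPB and NUPR1 rose in C3 with 0 lower by edgeR or DESeq2 and 1 (ATF5) lower at an unadjusted p below 0.05, and in C6 CEBPB and DDIT3 rose while NUPR1, ATF5 and JDP2 fell. ATF4 mRNA had 1012 and 1063 CPM in C3, 1115 and 1044 CPM in C6, and 1042 and 982 CPM in scramble libraries. C3 overlapped scramble, and both C6 libraries lay just above it. The log2 fold change was 0.04 ± 0.06 in C3 (SE, adjusted p = 0.72) and 0.09 ± 0.06 for C6 (adjusted p = 0.22, edgeR), so ATF4 mRNA was not called in either line. DDIT3, which encodes CHOP, the factor that turns a prolonged stress response towards cell death, had 142 and 156 CPM in C3, 167 and 161 CPM in C6, and 147 and 138 CPM in scramble libraries. It rose in C6 (0.20 ± 0.07, adjusted p = 0.019) and was 0.07 ± 0.07 in C3 (adjusted p = 0.51), and the difference between the lines did not pass the test (0.14 ± 0.07, C6 minus C3, adjusted p = 0.099, and 0.20 at 0.019 with the shift of its neighbours removed). Its C6 call was lost without C6 replicate 1 (adjusted p = 0.099), without scramble replicate 2 (adjusted p = 0.16) and under upper-quartile scaling (adjusted p = 0.099). The annotation places other protein-coding genes over DDIT3 on both strands, over PYCR1 on the same strand, and over ATF5, MTHFD2, SHMT2, PCK2 and ALDH1L2 on the opposite strand, and the sources used here do not say how reads there were assigned.

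ATF5, a relative of ATF4 that is itself controlled through upstream reading frames, had 54.2 and 58.4 CPM in C3, 44.0 and 47.7 CPM in C6, and 65.0 and 65.3 CPM in scramble libraries. The groups did not overlap, and C6 was the lowest. ATF5 fell in C6 (−0.51 ± 0.08, adjusted p = 6.7e-05), and its value in C3 was −0.21 ± 0.07 (adjusted p = 0.053). The C6 minus C3 difference of −0.29 ± 0.08 passed the test (adjusted p = 0.0048), but not without C3 replicate 2 (adjusted p = 0.07) or C6 replicate 1 (adjusted p = 0.052).

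CEBPB, a C/EBP-family factor that dimerises with ATF4, had 122 and 125 CPM in C3, 142 and 128 CPM in C6, and 90.0 and 87.1 CPM in scramble libraries, so all 4 knockdown libraries lay above scramble. It rose in C3 (0.48 ± 0.07, adjusted p = 8.1e-05) and also in C6 (0.61 ± 0.07, adjusted p = 3.0e-06). Its neighbours on the chromosome moved by nearly as much in C3 and by less in C6: the median log2 fold change of the 51 genes around it was 0.43 in C3 and 0.42 in C6. With that shift removed, CEBPB stood at 0.05 in C3 (adjusted p = 0.68) and 0.19 for C6 (adjusted p = 0.031). CEBPG, the C/EBP-family partner that ATF4 pairs with at amino acid genes, had 181 and 182 CPM in C3, 182 and 164 CPM in C6, and 164 and 157 CPM in scramble libraries. Its fold changes of 0.18 ± 0.06 in C3 (adjusted p = 0.057) and 0.11 ± 0.06 for C6 (adjusted p = 0.18) did not pass the test, although it was called in C3 without C6 replicate 1 (adjusted p = 0.035) or C6 replicate 2 (adjusted p = 0.033), with no low-count filter (adjusted p = 0.048) and with only C3 and scramble in the fit (adjusted p = 0.041). In C6 CEBPG was called without C6 replicate 2 (adjusted p = 0.043) and with the shift of its neighbours removed (0.20, adjusted p = 0.024).

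NUPR1, a small chromatin-associated stress protein, moved in opposite directions in the 2 lines and had the widest difference between them among the 32 genes. It had 27.1 and 28.1 CPM in C3, 7.22 and 7.84 CPM in C6, and 21.7 and 20.7 CPM in scramble libraries, with no overlap between any groups. It rose in C3 (0.38 ± 0.10, adjusted p = 0.0096) and fell in C6 (−1.49 ± 0.11, adjusted p = 4.9e-08), and the C6 minus C3 difference was −1.87 ± 0.11 (adjusted p = 2.6e-09). The C3 call was lost without C3 replicate 2 (adjusted p = 0.075) or scramble replicate 2 (adjusted p = 0.076). JDP2, a repressor of the AP-1 and ATF family, had 29.9 and 31.8 CPM in C3, 23.7 and 22.0 CPM in C6, and 27.4 and 28.5 CPM in scramble libraries. JDP2 fell in C6 (−0.29 ± 0.09, adjusted p = 0.016), a call lost without C6 replicate 2 (adjusted p = 0.11) or scramble replicate 2 (adjusted p = 0.091), and was 0.14 ± 0.09 in C3 (adjusted p = 0.29).

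**Figure D2:**
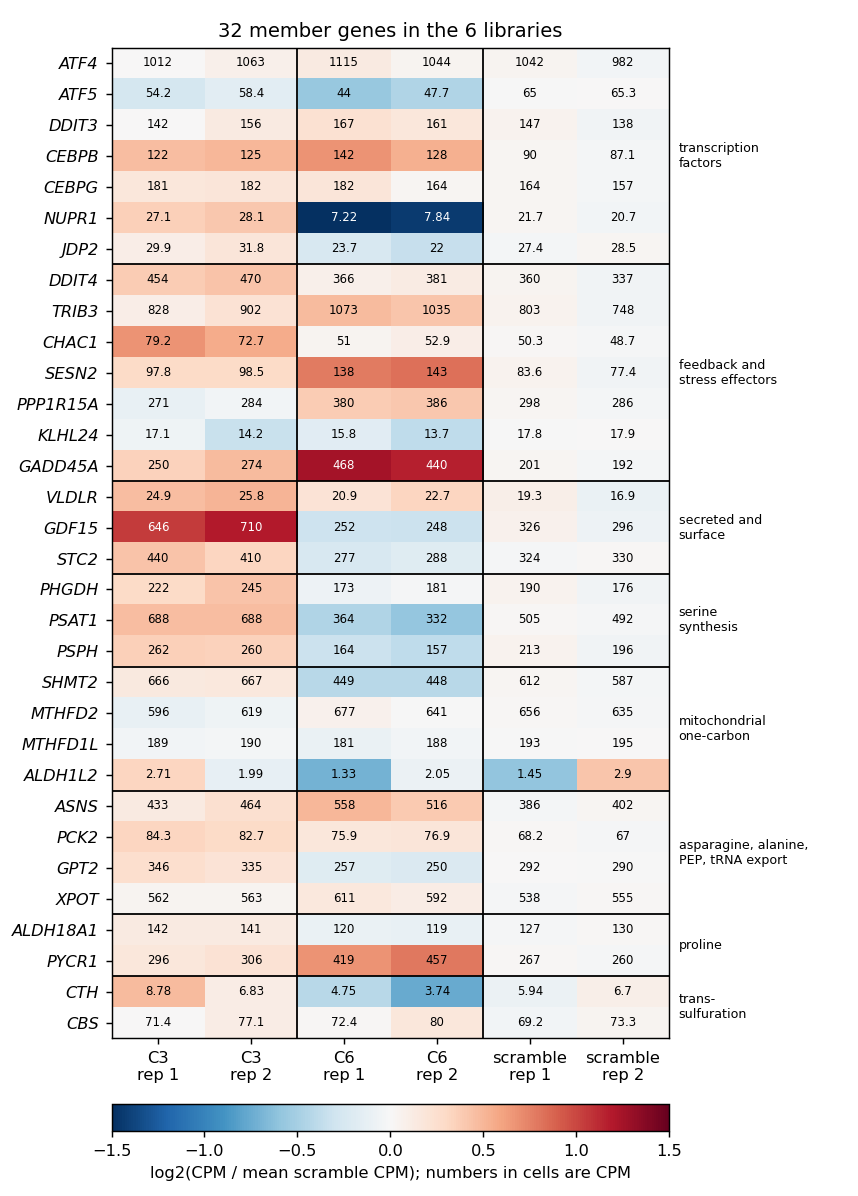
CPM of the 32 genes (rows, grouped by role) in the 6 libraries (columns, C3, C6, then scramble), with the CPM printed in each cell and colour for log2 of the ratio to the scramble mean, which ends at 1.5 on either side. The 2 libraries of a line mostly share a colour, and ALDH1L2, with at most 2.90 CPM in any library, is the plainest exception.

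Of the 7 feedback and stress effectors, 4 were higher in each line, against 12.4% of all genes tested in C3 and 23.8% in C6. CHAC1, DDIT4, GADD45A and SESN2 rose in C3, and GADD45A, SESN2, TRIB3 and PPP1R15A rose in C6, with 0 lower in either line by edgeR or DESeq2, and 1 (KLHL24 in C6) lower at an unadjusted p below 0.05 by edgeR. The median log2 fold change of the 7 was 0.29 in C3 and 0.39 in C6. GADD45A, which encodes a growth arrest and DNA damage protein, had 250 and 274 CPM in C3, 468 and 440 CPM in C6, and 201 and 192 CPM in scramble libraries. The 3 lines did not overlap, with C6 the highest. GADD45A rose in C3 (0.41 ± 0.06, adjusted p = 0.00020) and also in C6 (1.21 ± 0.06, adjusted p = 1.6e-09), and C6 exceeded C3 by 0.79 ± 0.06 (adjusted p = 7.5e-08). Genes around it moved the other way in C6, with a median of −0.19.

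SESN2, a sestrin that senses leucine and restrains mTORC1, had 97.8 and 98.5 CPM in C3, 138 and 143 CPM in C6, and 83.6 and 77.4 CPM in scramble libraries, again in steps without overlap. It rose in C3 (0.29 ± 0.07, adjusted p = 0.0046) and also in C6 (0.80 ± 0.07, adjusted p = 1.3e-07), and C6 exceeded C3 by 0.52 ± 0.06 (adjusted p = 9.3e-06). The C3 call was lost without scramble replicate 2 (adjusted p = 0.069). DDIT4, also called REDD1, is another restraint on mTORC1. DDIT4 had 454 and 470 CPM in C3, 366 and 381 CPM in C6, and 360 and 337 CPM in scramble libraries. It rose in C3 (0.41 ± 0.06, adjusted p = 0.00012), was 0.10 ± 0.06 in C6 (adjusted p = 0.18), and was lower in C6 than in C3, with a log2 difference of −0.31 ± 0.06 (adjusted p = 0.00047).

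CHAC1, a glutathione-degrading enzyme that responds strongly to ATF4 and CHOP, had 79.2 and 72.7 CPM in C3, 51 and 52.9 CPM in C6, and 50.3 and 48.7 CPM in scramble libraries. The C3 libraries stood apart, and those of C6 lay just above scramble. CHAC1 rose in C3 (0.62 ± 0.07, adjusted p = 2.1e-05), was 0.07 ± 0.07 in C6 (adjusted p = 0.47), and was lower in C6 than in C3, with a log2 difference of −0.55 ± 0.07 (adjusted p = 1.9e-05). TRIB3, a pseudokinase that ATF4 and CHOP induce and that inhibits ATF4 in turn, had 828 and 902 CPM in C3, 1073 and 1035 CPM in C6, and 803 and 748 CPM in scramble libraries. TRIB3 rose in C6 (0.44 ± 0.06, adjusted p = 3.8e-05) and was 0.16 ± 0.06 in C3 (adjusted p = 0.081). The genes around it, fewer than 51 because TRIB3 lies near an end of chromosome 20, had a median of 0.33 in C6. With that shift removed TRIB3 stood at 0.11 in C6 (adjusted p = 0.16). Its C6 minus C3 difference was then 0.01 (adjusted p = 0.89) in place of 0.28 (adjusted p = 0.0015).

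PPP1R15A encodes GADD34, the phosphatase subunit that dephosphorylates eIF2 and so ends the block on translation. It had 271 and 284 CPM in C3, 380 and 386 CPM in C6, and 298 and 286 CPM in scramble libraries. C6 lay above both other lines. PPP1R15A rose in C6 (0.39 ± 0.06, adjusted p = 5.0e-05), was −0.08 ± 0.06 in C3 (adjusted p = 0.38), and was higher in C6 than in C3 by 0.47 ± 0.06 (adjusted p = 7.3e-06). KLHL24, a Kelch-family ubiquitin ligase adaptor, had 17.1 and 14.2 CPM in C3, 15.8 and 13.7 CPM in C6, and 17.8 and 17.9 CPM in scramble libraries. Its values of −0.19 ± 0.12 in C3 and −0.27 ± 0.12 in C6 did not pass the test (adjusted p = 0.29 and 0.076), and the C6 value passed under upper-quartile scaling (−0.34, adjusted p = 0.032).

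Secreted and surface proteins showed the largest single rise in C3. GDF15, a circulating stress cytokine that signals through the GFRAL receptor in the hindbrain, had 646 and 710 CPM in C3, 252 and 248 CPM in C6, and 326 and 296 CPM in scramble libraries. Both C3 libraries lay far above scramble while both C6 libraries lay under it. GDF15 rose in C3 (1.12 ± 0.07, adjusted p = 1.1e-08), fell in C6 (−0.32 ± 0.07, adjusted p = 0.0011), and differed between the lines by −1.44 ± 0.07, C6 minus C3 (adjusted p = 2.5e-10). STC2, a secreted stanniocalcin, had 440 and 410 CPM in C3, 277 and 288 CPM in C6, and 324 and 330 CPM in scramble libraries. STC2 likewise rose in C3 (0.38 ± 0.06, adjusted p = 0.00023) and fell in C6 (−0.21 ± 0.06, adjusted p = 0.0087), with a difference of −0.59 ± 0.06, C6 minus C3 (adjusted p = 9.2e-07). Its C6 call was lost without C6 replicate 1 (adjusted p = 0.067) or scramble replicate 2 (adjusted p = 0.06). VLDLR, the very low density lipoprotein receptor, had 24.9 and 25.8 CPM in C3, 20.9 and 22.7 CPM in C6, and 19.3 and 16.9 CPM in scramble libraries. VLDLR rose in C3 (0.48 ± 0.10, adjusted p = 0.0027) and also in C6 (0.27 ± 0.10, adjusted p = 0.046), where the call was lost when any 1 library other than scramble replicate 1 was left out, at adjusted p from 0.058 to 0.28, and under upper-quartile scaling (adjusted p = 0.12), DESeq2 (adjusted p = 0.13), a fit of only C6 and scramble (adjusted p = 0.06) and a fit blocked by replicate number (adjusted p = 0.063).

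All 3 enzymes of serine synthesis rose in C3, and 2 of them fell in C6. PHGDH, PSAT1 and PSPH catalyse in turn the oxidation, transamination and dephosphorylation steps that lead from a glycolytic intermediate to serine. PSAT1 had 688 and 688 CPM in C3, 364 and 332 CPM in C6, and 505 and 492 CPM in scramble libraries. The 3 lines did not overlap, with C3 the highest and C6 the lowest. PSAT1 rose in C3 (0.47 ± 0.06, adjusted p = 4.1e-05), fell in C6 (−0.52 ± 0.06, adjusted p = 5.7e-06), and differed by −0.98 ± 0.06, C6 minus C3 (adjusted p = 5.1e-09). PSPH had 262 and 260 CPM in C3, 164 and 157 CPM in C6, and 213 and 196 CPM in scramble libraries. It rose in C3 (0.35 ± 0.06, adjusted p = 0.00054), fell in C6 (−0.35 ± 0.06, adjusted p = 0.00025), and differed by −0.70 ± 0.06, C6 minus C3 (adjusted p = 1.9e-07). PSPH has a close pseudogene copy, with which its reads could be split. PHGDH had 222 and 245 CPM in C3, 173 and 181 CPM in C6, and 190 and 176 CPM in scramble libraries, so C3 lay above and C6 overlapped scramble. PHGDH rose in C3 (0.35 ± 0.07, adjusted p = 0.00096), was −0.05 ± 0.07 in C6 (adjusted p = 0.59), and was lower in C6 than in C3, with a log2 difference of −0.40 ± 0.07 (adjusted p = 0.00012).

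**Figure D3:**
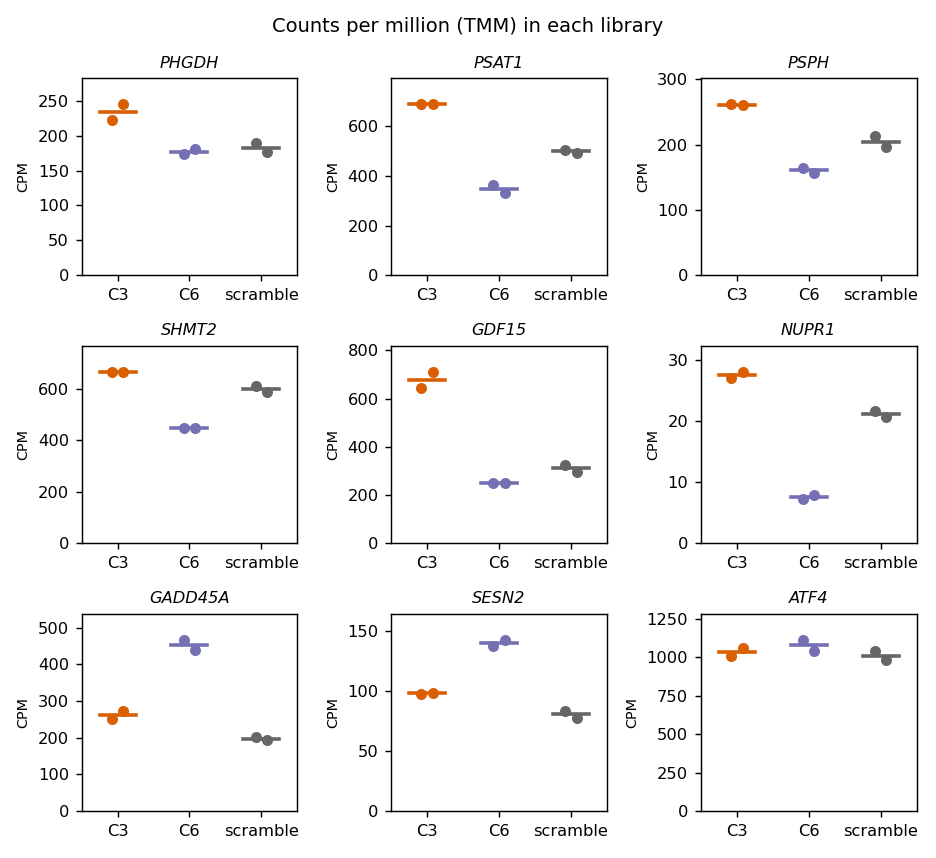
CPM (y axes, from 0) of 9 genes in the libraries of C3, C6 and scramble (x axes), with points for libraries and lines for the mean of 2. PSAT1, PSPH, GDF15 and NUPR1 lie above scramble in C3 and below it in C6, GADD45A and SESN2 lie above it in both lines, and ATF4 lies between 982 and 1115 CPM in all 6 libraries.

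Of the mitochondrial one-carbon enzymes, 0 of the 4 were called in C3 by edgeR, with 1 (SHMT2) higher at an unadjusted p below 0.05 and by DESeq2, and 1 was lower in C6. SHMT2, which splits serine into glycine and a one-carbon unit, had 666 and 667 CPM in C3, 449 and 448 CPM in C6, and 612 and 587 CPM in scramble libraries. C3 lay above and C6 below scramble. SHMT2 fell in C6 (−0.42 ± 0.06, adjusted p = 2.1e-05), was 0.15 ± 0.06 in C3 (adjusted p = 0.06, and 0.043 with DESeq2), and differed by −0.57 ± 0.06, C6 minus C3 (adjusted p = 7.3e-07). MTHFD2, the next enzyme of that route, had 596 and 619 CPM in C3, 677 and 641 CPM in C6, and 656 and 635 CPM in scramble libraries. Its values were −0.09 ± 0.06 in C3 (adjusted p = 0.30) and 0.03 ± 0.06 for C6 (adjusted p = 0.71). MTHFD1L, which releases formate, had 181 to 195 CPM over all 6 libraries, with −0.03 ± 0.06 in C3 and −0.07 ± 0.06 in C6 (adjusted p = 0.72 and 0.32). ALDH1L2, the mitochondrial formyltetrahydrofolate dehydrogenase, had 2.71 and 1.99 CPM in C3, 1.33 and 2.05 CPM in C6, and 1.45 and 2.90 CPM in scramble libraries. The scramble pair spans nearly the whole range of the other libraries, and the standard errors of 0.36 in C3 and 0.37 in C6 leave a difference of moderate size undetectable at this depth.

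Of ASNS, PCK2, GPT2 and the tRNA exporter XPOT, the first 3 rose in C3, and in C6 ASNS and PCK2 rose and GPT2 fell. ASNS, asparagine synthetase, had 433 and 464 CPM in C3, 558 and 516 CPM in C6, and 386 and 402 CPM in scramble libraries, in steps without overlap. ASNS rose in C6 (0.45 ± 0.06, adjusted p = 3.1e-05) and in C3 (0.19 ± 0.06, adjusted p = 0.038). The C3 call was lost without either C3 library or either scramble library (adjusted p from 0.061 to 0.32), under upper-quartile scaling (adjusted p = 0.11) and in a fit blocked by replicate number (adjusted p = 0.072). In C6 the median of the 51 genes around ASNS was 0.45, the value of ASNS itself, which is the middle gene of its window, so that with this shift removed it stands at 0.00 in C6 by construction (adjusted p = 1). Its C6 minus C3 difference was then −0.18 (adjusted p = 0.024) in place of 0.26 (adjusted p = 0.0027), and the call at 0.26 was lost without C3 replicate 1 (adjusted p = 0.059).

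PCK2, the mitochondrial enzyme that makes phosphoenolpyruvate, had 84.3 and 82.7 CPM in C3, 75.9 and 76.9 CPM in C6, and 68.2 and 67.0 CPM in scramble libraries. PCK2 rose in C3 (0.30 ± 0.07, adjusted p = 0.0031) and also in C6 (0.18 ± 0.07, adjusted p = 0.039), and the C6 call was lost in each of the 6 fits that left out 1 library (adjusted p from 0.066 to 0.14), with DESeq2 (adjusted p = 0.083), under upper-quartile scaling (adjusted p = 0.17), with only C6 and scramble in the fit (adjusted p = 0.067) and in a fit blocked by replicate number (adjusted p = 0.074). With the shift of its neighbours removed, PCK2 in C6 stood at 0.06 (adjusted p = 0.48). GPT2, the mitochondrial alanine aminotransferase, had 346 and 335 CPM in C3, 257 and 250 CPM in C6, and 292 and 290 CPM in scramble libraries, with C3 above and C6 below. GPT2 rose in C3 (0.23 ± 0.06, adjusted p = 0.0075) and fell in C6 (−0.20 ± 0.06, adjusted p = 0.0079), and the lines differed by −0.43 ± 0.06, C6 minus C3 (adjusted p = 1.4e-05). The C3 call was lost without C3 replicate 1 (adjusted p = 0.098) or scramble replicate 2 (adjusted p = 0.057), and the C6 call stood at adjusted p = 0.05 without C6 replicate 2. XPOT, which exports tRNA from the nucleus, had 562 and 563 CPM in C3, 611 and 592 CPM in C6, and 538 and 555 CPM in scramble libraries, with fold changes that did not pass the test in C3 (0.04 ± 0.06, adjusted p = 0.65) or C6 (0.14 ± 0.06, adjusted p = 0.054, and 0.04 with DESeq2).

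Of the 2 proline enzymes, PYCR1 was higher and ALDH18A1 lower in C6 than in C3. PYCR1, which carries out the last step of proline synthesis in mitochondria, had 296 and 306 CPM in C3, 419 and 457 CPM in C6, and 267 and 260 CPM in scramble libraries, in steps without overlap. PYCR1 rose in C6 (0.74 ± 0.06, adjusted p = 1.5e-07) and in C3 (0.19 ± 0.06, adjusted p = 0.028), and C6 exceeded C3 by 0.54 ± 0.06 (adjusted p = 2.8e-06). The C3 call was lost without either C3 library or either scramble library (adjusted p from 0.081 to 0.20), under upper-quartile scaling (adjusted p = 0.077) and in a fit blocked by replicate number (adjusted p = 0.053). ALDH18A1, which carries out the first steps, had 142 and 141 CPM in C3, 120 and 119 CPM in C6, and 127 and 130 CPM in scramble libraries. It passed the test in neither line (0.14 ± 0.06 for C3, adjusted p = 0.11, and −0.10 ± 0.06 for C6, adjusted p = 0.17, or −0.165 and 0.034 under upper-quartile scaling). With the shift of its neighbours removed it was called higher in C3 (0.23, adjusted p = 0.012) and stood at 0.05 in C6 (adjusted p = 0.52). ALDH18A1 was lower in C6 than in C3, with a log2 difference of −0.24 ± 0.06 (adjusted p = 0.0036).

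Of the 2 transsulfuration enzymes, CTH, which makes cysteine from cystathionine, was lowly expressed at 8.78 and 6.83 CPM in C3, 4.75 and 3.74 CPM in C6, and 5.94 and 6.70 CPM in scramble libraries. CTH fell in C6 (−0.58 ± 0.19, adjusted p = 0.022), was 0.31 ± 0.18 in C3 (adjusted p = 0.25), and differed by −0.88 ± 0.19, C6 minus C3 (adjusted p = 0.0012). Its C6 call was lost without C6 replicate 2 (adjusted p = 0.17) or scramble replicate 2 (adjusted p = 0.14), with DESeq2 (adjusted p = 0.065), and with the shift of its neighbours, a median of −0.18, removed (adjusted p = 0.11). CBS, which makes cystathionine, had 71.4 and 77.1 CPM in C3, 72.4 and 80.0 CPM in C6, and 69.2 and 73.3 CPM in scramble libraries, and all groups overlapped. Reads of CBS could be split with CBSL, a near-identical copy, which had 56.4 and 59.2 CPM in C3, 56.6 and 61.7 CPM in C6, and 55.5 and 57.6 CPM in scramble libraries.

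**Figure D4:**
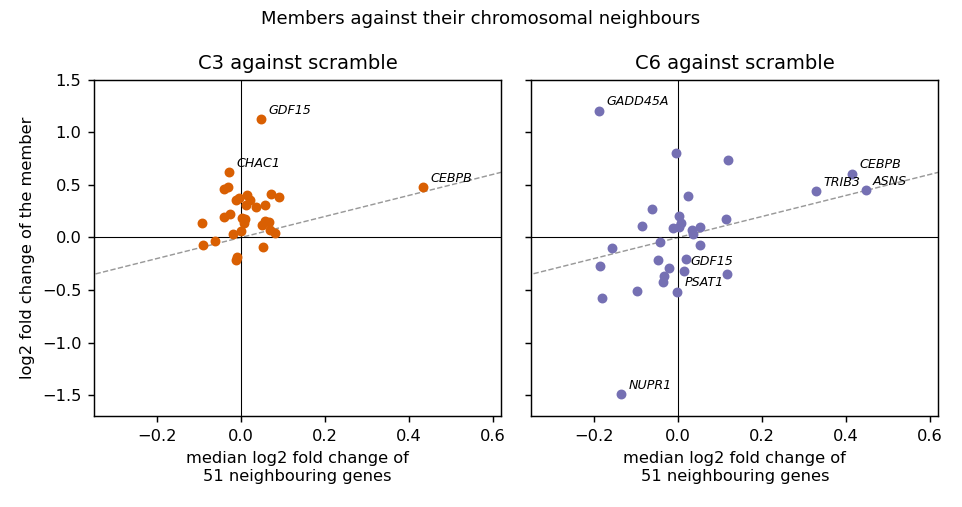
Log2 fold change against scramble of each of the 32 genes (y axis), in C3 (left) and C6 (right). The x axis is the median log2 fold change of up to 51 genes around each on its chromosome. A dashed line marks where the values are equal. CEBPB in both lines, and ASNS and TRIB3 in C6, lie near the line with neighbours at 0.33 to 0.45 on the log2 scale, while GDF15 in C3 and GADD45A and NUPR1 in C6 lie far from it.

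Other genes of the response were taken from 8 lists, chosen like the 32 genes with earlier results of these data known, and are described by counts beside the shares of all genes given above. The kinases and eIF2 subunits that act before ATF4 held 17 genes, of which 2 were higher and 0 lower in C3 by edgeR (2 lower at an unadjusted p below 0.05, and 0 lower by DESeq2), and 6 higher and 5 lower in C6. EIF2S2, the eIF2 beta subunit, rose in C3 (0.30 ± 0.06, adjusted p = 0.0031) and also in C6 (0.24 ± 0.06, adjusted p = 0.0062), but with the shift of its neighbours removed it stood at 0.16 in C3 (adjusted p = 0.091) and 0.05 for C6 (adjusted p = 0.58). Both EIF2S2 calls were also lost without scramble replicate 2 (adjusted p = 0.052 and 0.068), the C3 call without C3 replicate 2 (adjusted p = 0.065), and the C6 call without C6 replicate 1 (adjusted p = 0.085). EIF2AK2, the kinase PKR that senses double-stranded RNA, had 103 and 97.5 CPM in C3, 82.3 and 88.8 CPM in C6, and 105 and 116 CPM in scramble libraries, and fell in C6 (−0.37 ± 0.07, adjusted p = 0.00056). DELE1, which relays mitochondrial stress to the eIF2 kinase HRI, fell in C6 (−0.42 ± 0.08, adjusted p = 0.00037), and EIF2S1, the eIF2 alpha subunit that carries the phosphorylated serine, rose in C6 (0.32 ± 0.07, adjusted p = 0.0012).

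Of 9 tested amino acid transporters reported as ATF4 targets, 3 were higher and 0 lower in C3 by edgeR and by DESeq2 (0 lower at an unadjusted p below 0.05 in either), and 4 were higher and 3 lower in C6. SLC7A5, the large neutral amino acid transporter LAT1, had 1288 and 1217 CPM in C3, 581 and 645 CPM in C6, and 992 and 1031 CPM in scramble libraries. SLC7A5 rose in C3 (0.31 ± 0.06, adjusted p = 0.0022) and fell in C6 (−0.72 ± 0.06, adjusted p = 3.2e-07), where its 51 neighbours had a median of −0.67 and the value with that shift removed was −0.05 (adjusted p = 0.58). SLC3A2, its heavy chain partner, rose in C6 (0.29 ± 0.06, adjusted p = 0.0014) and was 0.16 ± 0.06 in C3 (adjusted p = 0.075). SLC38A2, a glutamine and alanine carrier induced by amino acid shortage, rose in C6 (0.43 ± 0.06, adjusted p = 2.0e-05) and was 0.06 ± 0.06 in C3 (adjusted p = 0.47). SLC1A4, an alanine and serine exchanger, fell in C6 (−0.39 ± 0.07, adjusted p = 0.00033) and was near scramble in C3, with 78.5 and 77.9 CPM in C3 and 80.5 and 76.5 CPM in scramble libraries.

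Cytosolic aminoacyl-tRNA synthetases, which charge tRNA with amino acids, were the list with the highest share called higher in C6 among the 8. Of 13, 4 were higher and 0 lower in C3 by edgeR and by DESeq2 (0 lower at an unadjusted p below 0.05 in either), and 11 were higher and 1 lower in C6, with medians of 0.11 and 0.20. GARS1, for glycine, had 560 and 572 CPM in C3, 686 and 668 CPM in C6, and 449 and 421 CPM in scramble libraries, and rose in C3 (0.38 ± 0.06, adjusted p = 0.00020) and also in C6 (0.64 ± 0.06, adjusted p = 4.2e-07). YARS1, for tyrosine, rose in C3 (0.22 ± 0.06, adjusted p = 0.0088) and also in C6 (0.39 ± 0.06, adjusted p = 4.5e-05), and its C3 call was lost without C3 replicate 2 (adjusted p = 0.11) or scramble replicate 2 (adjusted p = 0.085). TARS1 and CARS1, for threonine and cysteine, rose in C6 by 0.45 ± 0.06 and 0.35 ± 0.06 (adjusted p = 1.5e-05 and 0.00013) and had 0.11 and 0.12 in C3, which did not pass the test (adjusted p = 0.18 and 0.13). The 51 genes around GARS1 and TARS1 had medians of 0.32 and 0.28 in C6, and with that shift removed GARS1 stood at 0.32 (adjusted p = 0.00046) and TARS1 at 0.16 (adjusted p = 0.032) in C6. CARS1 was then called in C3 as well (0.18, adjusted p = 0.033).

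A list of 19 other reported ATF4 or CHOP targets had 6 higher and 3 lower in C3, and 12 higher and 4 lower in C6. TXNIP, which binds thioredoxin and limits glucose uptake, had 26.5 and 26.3 CPM in C3, 70.8 and 73.4 CPM in C6, and 22.0 and 19.1 CPM in scramble libraries. It rose in C3 (0.36 ± 0.09, adjusted p = 0.0081) and also in C6 (1.81 ± 0.09, adjusted p = 6.6e-10), with the C3 call lost without scramble replicate 2 (adjusted p = 0.10). ATF3, a stress-induced repressor of the ATF family, had 58.9 and 58.5 CPM in C3, 51.04 and 57.4 CPM in C6, and 41.4 and 37.9 CPM in scramble libraries. ATF3 rose in C3 (0.57 ± 0.08, adjusted p = 0.00012) and also in C6 (0.45 ± 0.08, adjusted p = 0.00037), and the lines were not shown to differ (−0.11 ± 0.08, C6 minus C3, adjusted p = 0.26). CLIC4, a chloride channel family protein, rose in C3 (0.24 ± 0.06, adjusted p = 0.011) and also in C6 (0.59 ± 0.06, adjusted p = 1.8e-06), with the C3 call lost without C3 replicate 1 (adjusted p = 0.15) or scramble replicate 1 (adjusted p = 0.09). TNFRSF10B, the death receptor DR5, rose in C6 (0.55 ± 0.06, adjusted p = 1.9e-06), with neighbours at a median of 0.47 and a value of 0.08 with that shift removed (adjusted p = 0.31).

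Other enzymes of the same metabolic routes were mixed. Of 15 further serine, glycine and folate enzymes, 3 were higher and 1 lower in C3, and 3 higher and 3 lower in C6. SLC25A32, the mitochondrial folate carrier, rose in C3 (0.23 ± 0.07, adjusted p = 0.032), a call lost without either C3 or either scramble library (adjusted p from 0.077 to 0.23), under upper-quartile scaling (adjusted p = 0.07), with DESeq2 (adjusted p = 0.08), with the shift of its neighbours removed (adjusted p = 0.12) and in a fit blocked by replicate number (adjusted p = 0.051). MTHFD2L, a relative of MTHFD2, fell in C6 (−0.49 ± 0.11, adjusted p = 0.0018). DLD, a subunit of the glycine cleavage system, rose in C6 by 0.40 ± 0.08 (adjusted p = 0.0010), and with the shift of its neighbours removed stood at −0.11 (adjusted p = 0.30).

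Of 18 further proline, glutamate, aspartate and transsulfuration enzymes, 7 were higher and 1 lower in C3, and 6 higher and 4 lower in C6. GLUL, glutamine synthetase, had 104 and 107 CPM in C3, 58.2 and 52.3 CPM in C6, and 126 and 125 CPM in scramble libraries. GLUL fell in C3 (−0.25 ± 0.07, adjusted p = 0.013) and also in C6 (−1.18 ± 0.07, adjusted p = 5.1e-09), and C6 was lower than C3, with a log2 difference of −0.93 ± 0.07 (adjusted p = 4.5e-08). The C3 call was lost without either C3 or either scramble library (adjusted p from 0.059 to 0.11) and with the shift of its neighbours removed (adjusted p = 0.077). ASL, the urea cycle enzyme argininosuccinate lyase, rose in C3 (0.59 ± 0.13, adjusted p = 0.0030) and also in C6 (0.72 ± 0.13, adjusted p = 0.00028). ALDH4A1, of proline breakdown, rose in C3 (0.79 ± 0.14, adjusted p = 0.00078) and also in C6 (0.45 ± 0.15, adjusted p = 0.019), where the call was lost without C6 replicate 2 (adjusted p = 0.13), without either scramble library (adjusted p = 0.072 and 0.097) and with DESeq2 (adjusted p = 0.057). GOT1, the cytosolic aspartate aminotransferase, rose in C6 (0.52 ± 0.07, adjusted p = 1.9e-05) and was −0.08 ± 0.07 in C3 (adjusted p = 0.45).

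The XBP1 and ATF6 arms of the unfolded protein response, which act beside the PERK kinase upstream of ATF4, had 3 of 17 genes higher and 3 lower in C3, and 3 higher and 3 lower in C6, near the shares of all genes in C3 and below them in C6. XBP1 rose in C3 (0.26 ± 0.06, adjusted p = 0.0063) and also in C6 (0.41 ± 0.06, adjusted p = 6.4e-05), while HYOU1, an endoplasmic reticulum chaperone, fell in C3 (−0.29 ± 0.06, adjusted p = 0.0024) and also in C6 (−0.40 ± 0.06, adjusted p = 6.0e-05). PDIA4, a disulfide isomerase, rose in C3 (0.26 ± 0.06, adjusted p = 0.0023) and also in C6 (0.34 ± 0.06, adjusted p = 0.00014), beside neighbours at medians of 0.31 and 0.48, and turned to −0.05 in C3 (adjusted p = 0.61) and −0.15 for C6 (adjusted p = 0.046) with that shift removed. The C3 call of XBP1 was lost without C3 replicate 2 (adjusted p = 0.069) or scramble replicate 2 (adjusted p = 0.095). DNAJB11, a co-chaperone, fell in C6 (−0.67 ± 0.06, adjusted p = 5.4e-07), beside neighbours at −0.44, and remained lower with that shift removed (−0.23, adjusted p = 0.0085).

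Of 13 tested paralogs of the sestrin, GADD45, C/EBP, ATF and tribbles genes, 2 were higher and 2 lower in each line. TRIB1, a tribbles pseudokinase that leads C/EBP proteins to degradation, had 81.1 and 78.9 CPM in C3, 134 and 129 CPM in C6, and 55.5 and 58.2 CPM in scramble libraries. TRIB1 rose in C3 (0.49 ± 0.07, adjusted p = 6.6e-05) and also in C6 (1.21 ± 0.07, adjusted p = 2.5e-09). TRIB2, its close relative, had 9.30 and 9.07 CPM in C3, 3.34 and 3.16 CPM in C6, and 11.8 and 12.5 CPM in scramble libraries. TRIB2 fell in C3 (−0.40 ± 0.14, adjusted p = 0.040) and also in C6 (−1.90 ± 0.15, adjusted p = 1.1e-07). Its C3 call was lost without either C3 or either scramble library (adjusted p from 0.098 to 0.19), with DESeq2 (adjusted p = 0.16), with the shift of its neighbours removed (adjusted p = 0.053) and in a fit blocked by replicate number (adjusted p = 0.058). ATF2 fell in C6 (−0.40 ± 0.07, adjusted p = 0.00022), beside neighbours at −0.47, and stood at 0.07 with that shift removed (adjusted p = 0.42). GADD45G was called higher in C6 (adjusted p = 0.0084) at 1.02 and 0.719 CPM in C6 and 0 and 0.186 CPM in scramble libraries, and no fold is given because 1 scramble library had no count. Its call was lost without C6 replicate 1 (adjusted p = 0.076) or scramble replicate 1 (adjusted p = 0.091).

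**Figure D5:**
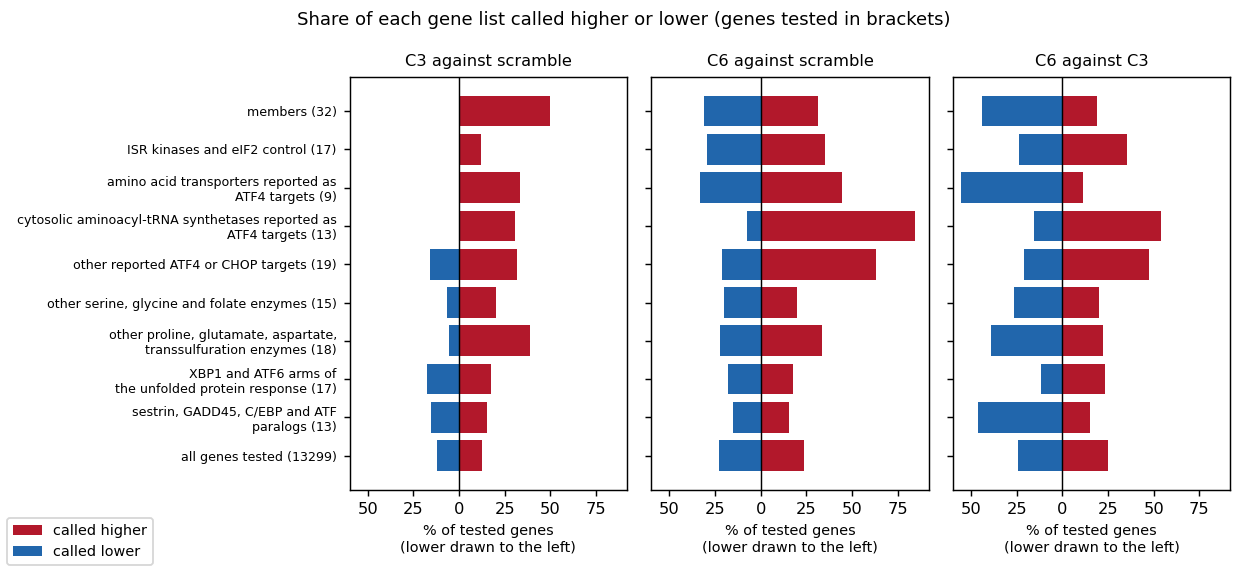
Share of the tested genes of each list called higher (right, red) or lower (left, blue) at an adjusted p below 0.05 (x axes, percent), for C3 against scramble, C6 against scramble and C6 against C3, with the number tested in brackets. The 32 genes have a bar only to the right in C3 and bars on both sides in C6, and the tRNA synthetases have the longest bar to the right in C6, with 11 of 13.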

How the data were processed

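The deposited table holds raw counts per gene in whole numbers for 6 libraries, per the file headers. The submitters' processing notes name build hg38, DESeq2, StringTie 2.1.3b, HISAT2 2.1.0 and Trimmomatic 0.38. The sources used here do not give their order or how reads of overlapping or copied genes were assigned. Libraries were grouped by title.

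Counts were scaled by TMM and tested with the robust quasi-likelihood test of edgeR 4.0.16 (limma 3.58.1, R 4.3.3) after filterByExpr, with all 3 groups in 1 fit and 3 residual degrees of freedom. Benjamini-Hochberg adjustment ran over 13299 genes, with a threshold of 0.05. Log2 fold changes carry standard errors, taken as the fold change divided by the root of the F value. The fit was also run on simulated counts in which few genes were changed, which does not bear on the calls reported here. A gene's neighbourhood is the running median log2 fold change of 51 genes by RefSeq position (GRCh38.p14, 13036 of the genes tested matched by symbol). Near a chromosome end the window is cut short and holds fewer genes. Alternatives were other scalings and filters, DESeq2 1.42.0, a replicate block, fits of only the groups compared, removal of the neighbourhood shift, and leaving out each library.

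A floor of 3 counts is 0.0968 to 0.114 CPM, for counting error only. The 32 genes and the 8 lists were chosen with earlier results of these data known. Of each list, up to 4 genes with the smallest p in the mean of both lines are named, except 1 gene that is not reported here. All 32 genes and DKC1 are named, and CBSL was added after its values were seen.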

Additional observations from a re-analysis of the deposited data

Results flagged for a closer look

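C6 and C3 differed by the direct test (C6 minus C3, quasi-likelihood test of edgeR, Benjamini-Hochberg adjusted) for 20 of the 32 genes, 2 libraries a line. Of all genes tested, 25.1% were called higher and 24.1% lower in C6 than in C3. Of the 20 genes, 6 were higher in C6. The log2 differences were 0.79 for GADD45A, 0.54 for PYCR1, 0.52 for SESN2, 0.47 for PPP1R15A, 0.28 for TRIB3 and 0.26 for ASNS, with adjusted p from 7.5e-08 to 0.0027. With the shift of the neighbours removed, TRIB3 stood at 0.01 (adjusted p = 0.89) and ASNS at −0.18 (adjusted p = 0.024, edgeR). The other 14 were lower in C6. The log2 differences were −1.87 for NUPR1, −1.44 for GDF15, −0.98 for PSAT1, −0.88 for CTH, −0.70 for PSPH, −0.59 for STC2 and −0.57 for SHMT2, with adjusted p from 2.5e-10 to 0.0012. They were −0.55 for CHAC1, −0.44 for JDP2, −0.43 for GPT2, −0.40 for PHGDH, −0.31 for DDIT4, −0.29 for ATF5 and −0.24 for ALDH18A1, with adjusted p from 1.4e-05 to 0.0048. The calls of ASNS and ATF5 depended on single libraries, as given with each gene. NUPR1, GDF15, PSAT1, PSPH, STC2 and GPT2 were called higher in C3 and lower in C6 against the shared scramble libraries. The sources used here do not say which shRNA each line carries, so the shRNA, the depth of knockdown and the line cannot be told apart.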

How the results depend on the processing

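With 2 libraries a group, the counts of called genes moved with the library left out: higher in C3, 11 to 17 (main 16); lower in C3, 0 to 1 (0); higher in C6, 7 to 9 (10); lower in C6, 7 to 10 (10); higher in C6 than C3, 5 to 7 (6); lower in C6 than C3, 13 to 14 (14). For the mean of both lines they were 9 to 13 higher and 2 to 3 lower (12 and 3). Counts over all genes also moved with the library left out. The count lower in C3 was 1 in place of 0 under median-of-ratios scaling, upper-quartile scaling, a 1 CPM filter and a fit of only the groups compared. Over all genes the count lower in C3 was then 1605 to 1840, in place of 1576. With the knockdown libraries as 1 group, 0 were higher and 0 lower, since the difference between the lines then counts as spread. Over all genes that fit called 40 higher and 40 lower. Replicate numbers did not pair the libraries (correlations of deviations −0.05 for C3 with scramble, 0.06 for C6 with scramble and 0.03 for C6 with C3). With the neighbour shift removed, 16 were higher and 0 lower in C3, 8 and 9 in C6, and 6 and 17 in C6 against C3. These were not all the same genes as in the main fit. In C3 CEBPB was lost and ALDH18A1 gained. In C6 TRIB3, ASNS, PCK2 and CTH were lost and CEBPG gained. In C6 against C3, DDIT3 and XPOT took the place of TRIB3 and ASNS as higher, and ASNS, MTHFD1L and PCK2 were added as lower. Upper-quartile scaling gave 14 and 1, 7 and 12, and 6 and 14. With the replicate block, 14 were higher and 0 lower in C3, 8 and 10 in C6, 11 and 2 for the mean, and 6 and 14 in C6 against C3. Upper-quartile scaling moved the median of all genes by −0.04 in C3 and −0.06 in C6.

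Values that turned sign were near 0, except for ALDH1L2, ASNS and some values that rest on 1 library. With the neighbourhood shift removed, the log2 values in C3 were −0.0025 for DDIT3, 0.027 for MTHFD1L, 0.0145 for PPP1R15A and −0.039 for XPOT. In C6 they were −0.0054 for MTHFD2 and 0.053 for ALDH18A1, and for the mean −0.069 for PSPH. For C6 minus C3 they were −0.18 for ASNS, 0.027 for CEBPG and 0.091 for KLHL24. Upper-quartile scaling gave −0.032 for MTHFD2 in C6, and for the mean −0.048 for PSPH, −0.033 for ALDH18A1 and −0.037 for GPT2. The mean of PSPH was −0.0023 under median-of-ratios scaling, −0.0044 with the 1 CPM filter and −0.0023 with DESeq2, and that of PSAT1 was 0.056 with the knockdown libraries as 1 group. Leaving out 1 library gave −0.0056 to 0.081 for ATF4 in C3, −0.30 to 0.70 for ALDH1L2 in C3 and −0.78 to 0.22 in C6, −0.10 to 0.0091 for PHGDH in C6, and −0.0086 to 0.071 for MTHFD2 in C6. For the mean it gave −0.059 to 0.0095 for PSAT1, −0.054 to 0.060 for PSPH and −0.54 to 0.46 for ALDH1L2. For C6 minus C3 it gave −0.035 to 0.11 for CBS, −0.15 to 0.0087 for CEBPG and −0.22 to 0.058 for KLHL24. The cause was not tested. At the depth of these libraries ALDH1L2 had standard errors of 0.36 in C3 and 0.37 in C6.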
